A study of Mus musculus with 24 samples.

Results

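The 10 genes described here encode core parts of the major histocompatibility complex (MHC) system that shows peptides to T cells. They were picked by symbol from the 21370 named genes on the array: the class I chains H2-K1, H2-D1 and B2m, the peptide supply genes Tap1, Psmb8 and Psmb9, and the class II genes H2-Aa, H2-Ab1, H2-Eb1 and Cd74. All 10 had a probe, 8 of them a single probe, and 9 were well above background on all 24 arrays. Tap1 was well above background on 19 arrays, the exception being muscle, where it passed on 1 of 6 arrays (KI mouse B).

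The study asked whether a Rap1 protein that cannot be held at telomeres alters transcription in the body. Arrays profiled 4 tissues (brain, heart, liver and skeletal muscle) from each of 6 females. In 3 mice (A, B and C, called KI here and RAP1 MUT in the labels) both copies of Rap1 (gene symbol Terf2ip) carried a knockin point mutation in every cell, which replaces an isoleucine with an arginine and disrupts binding to the telomere protein TRF2. The other 3 mice (D, E and F) were wild type (WT). The knockin line, made with Crispr/Cas9, had been crossed back to C57BL/6N mice 4 times. Mouse F among the WT and mouse C among the KI animals had reached 14 months, and the remaining 4 animals 15 months. Each mouse gave all 4 tissues, so every group of 3 arrays is 3 animals, and the genotypes share no animal.

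MHC class I molecules sit on nearly all nucleated cells. A heavy chain (H2-K1 or H2-D1) pairs with beta-2-microglobulin (B2m) and holds a peptide cut inside the cell, often by immunoproteasomes that carry Psmb8 and Psmb9, and carried into the endoplasmic reticulum by the transporter of which Tap1 is one chain. MHC class II molecules (H2-Aa with H2-Ab1, and the beta chain H2-Eb1) are made mainly by dendritic cells, macrophages and B cells, where the invariant chain Cd74 guards the empty groove until a peptide from an endosome is loaded. Interferon-gamma induces both arms, class I chiefly through Nlrc5 and class II through Ciita.

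Of the 10 genes, 8 lie on chromosome 17, where Psmb9, Tap1 and Psmb8 are neighbours and H2-Ab1, H2-Aa and H2-Eb1 are neighbours. B2m lies on chromosome 2. Promoter sequences are shown because several of these genes are known for shared promoter elements. The RefSeq promoters of 8 members (build GRCm38.p6) were searched, and those of the class II genes H2-Ab1 and Cd74 were not. In the 180 bases before each start, both strands were searched for 6 motifs, chosen from textbook knowledge of these promoters with their sequences in view. Capitals mark the matches. The motifs were ATTGG (the Y box, an inverted CCAAT box), TGACG (the core of a CREB site in the X region), the X box of class II promoters, the palindromic kappaB site, and a shorter and a longer form of the interferon response element, the letters of each being those in capitals in the member named with it after the sequences.
H2-K1, chr17:34000348-34000527 (minus strand): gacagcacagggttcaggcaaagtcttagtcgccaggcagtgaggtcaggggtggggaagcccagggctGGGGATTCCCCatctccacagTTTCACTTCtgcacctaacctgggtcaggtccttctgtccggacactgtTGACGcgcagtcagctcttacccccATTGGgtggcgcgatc
H2-D1, chr17:35262914-35263093 (plus strand): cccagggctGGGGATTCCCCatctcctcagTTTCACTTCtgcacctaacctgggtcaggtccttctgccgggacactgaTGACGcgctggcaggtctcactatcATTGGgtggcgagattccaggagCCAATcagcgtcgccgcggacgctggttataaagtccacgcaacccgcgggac
B2m, chr2:122147507-122147686 (plus strand): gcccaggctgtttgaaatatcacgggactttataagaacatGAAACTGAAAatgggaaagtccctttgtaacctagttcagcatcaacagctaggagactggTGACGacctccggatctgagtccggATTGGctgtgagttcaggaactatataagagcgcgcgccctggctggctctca
H2-Aa, chr17:34287824-34288003 (minus strand): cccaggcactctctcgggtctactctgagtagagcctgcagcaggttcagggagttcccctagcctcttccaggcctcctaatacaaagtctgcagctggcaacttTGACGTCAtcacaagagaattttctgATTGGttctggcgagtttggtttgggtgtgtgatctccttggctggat
H2-Eb1, chr17:34305687-34305866 (plus strand): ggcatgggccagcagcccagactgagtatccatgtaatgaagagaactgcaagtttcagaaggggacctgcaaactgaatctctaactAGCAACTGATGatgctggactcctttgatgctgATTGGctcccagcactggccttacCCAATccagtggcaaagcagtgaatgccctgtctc
Between Psmb9 and Tap1, chr17:34187331-34187555 (plus strand): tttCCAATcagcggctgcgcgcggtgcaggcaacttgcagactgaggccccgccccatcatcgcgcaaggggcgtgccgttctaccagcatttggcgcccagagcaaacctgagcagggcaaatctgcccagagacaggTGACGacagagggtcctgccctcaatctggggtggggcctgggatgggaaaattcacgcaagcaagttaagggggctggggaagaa

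The H2-K1 and H2-D1 windows shared the kappaB site, an interferon element, a TGACG and an ATTGG in the same order and at the same spacing, and from the kappaB site onward 98 of 111 aligned bases (88.3%) were identical. The palindromic kappaB site occurred in 9 of 32851 promoters of this length (0.0274%), and of the 8 members searched only H2-K1 and H2-D1 had it. The shorter interferon element was also found in these 2 members and in 4.42% of all promoters, while B2m held the longer form (2.01% of all). ATTGG was present in 6 of 8 members and in 27.5% of all promoters, and TGACG in 6 of 8 and in 14.8%, so each of these short motifs alone is common. The X box occurred in H2-Eb1 and in 0.0426% of all promoters. Since the motifs were chosen with these sequences in view, the hits in the members are no test. In H2-Aa these exact X box letters are absent, which does not say that it lacks an X box. Psmb9 and Tap1 start 225 bases apart and point away from each other, and the stretch between them held 1 ATTGG and 1 TGACG. No motif was found for Psmb8, which says only that these letters are not in its window, and a match is a description of the letters, not a site.

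Levels are on a log2 scale, with the 75th percentile of each array's processed signal set to 0, so that 0 is as bright as the probe at that percentile and 1 unit is a 2-fold difference in signal. Probes differ in how well they bind, so levels are compared between samples of 1 probe and never between genes. The array percentile itself lay between 312.4 and 2510 units of signal, and the share of probes well above background was 49.4% to 68.4% per array. In each tissue, all 6 listed markers of its own main cell type (hepatocytes, neurons, cardiomyocytes, skeletal muscle) were well above background on all 6 arrays. Terf2ip levels overlapped between KI and WT in all 4 tissues (KI 0.14 to 1.25, WT 0.46 to 1.47 over all tissues), and since the allele is a point mutation, its probe does not check the genotype. By transcripts of another tissue 3 arrays stood apart, all from KI mice. In the brain of mouse C the hepatocyte gene Alb stood at 6.54, where the other brains reached at most -0.82, in the liver of mouse C the muscle gene Myh4 stood at 1.48 (other livers at most -5.64), and in the muscle of mouse B the mammary gene Wfdc18 stood at 2.30 (other muscles at most -6.13). Genotype differences and correlations that rest on these 3 arrays are given with and without them. Among the other brains Alb was uneven, at -0.99 and -0.82 in WT mice E and F and -7.10 to -3.58 in mice A, B and D. Smaller amounts of such transcripts on other arrays were not tested.

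The mean over 6 mice was highest in liver for all 10 genes, but for H2-Aa and H2-Eb1 liver and heart did not differ past the threshold, and in the 3 WT mice H2-Aa was at -0.0674 (log2) for liver minus heart. H2-K1 was 42.9-fold higher in liver than in brain, and the heart and muscle lay between them. The means ran from liver over heart and muscle to brain for every member but Tap1. Of these, H2-Aa and H2-Eb1 did not differ past the threshold between liver and heart, and the muscle and brain step of B2m depended on the scaling. H2-D1 had its lowest 2 means in muscle and brain without a difference past the threshold, and for Tap1 those 2 could not be ordered, since its probe was mostly not well above background in muscle. Class II genes stood apart from class I and peptide supply genes in some pairs of tissues. In heart, class II genes lay 0.25 to 1.06 (log2) below their liver level. Class I and peptide supply genes lay 1.78 to 3.52 below theirs. These are bulk tissues, so fewer cells of a type and less RNA per cell cannot be told apart.

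**Figure D1:**
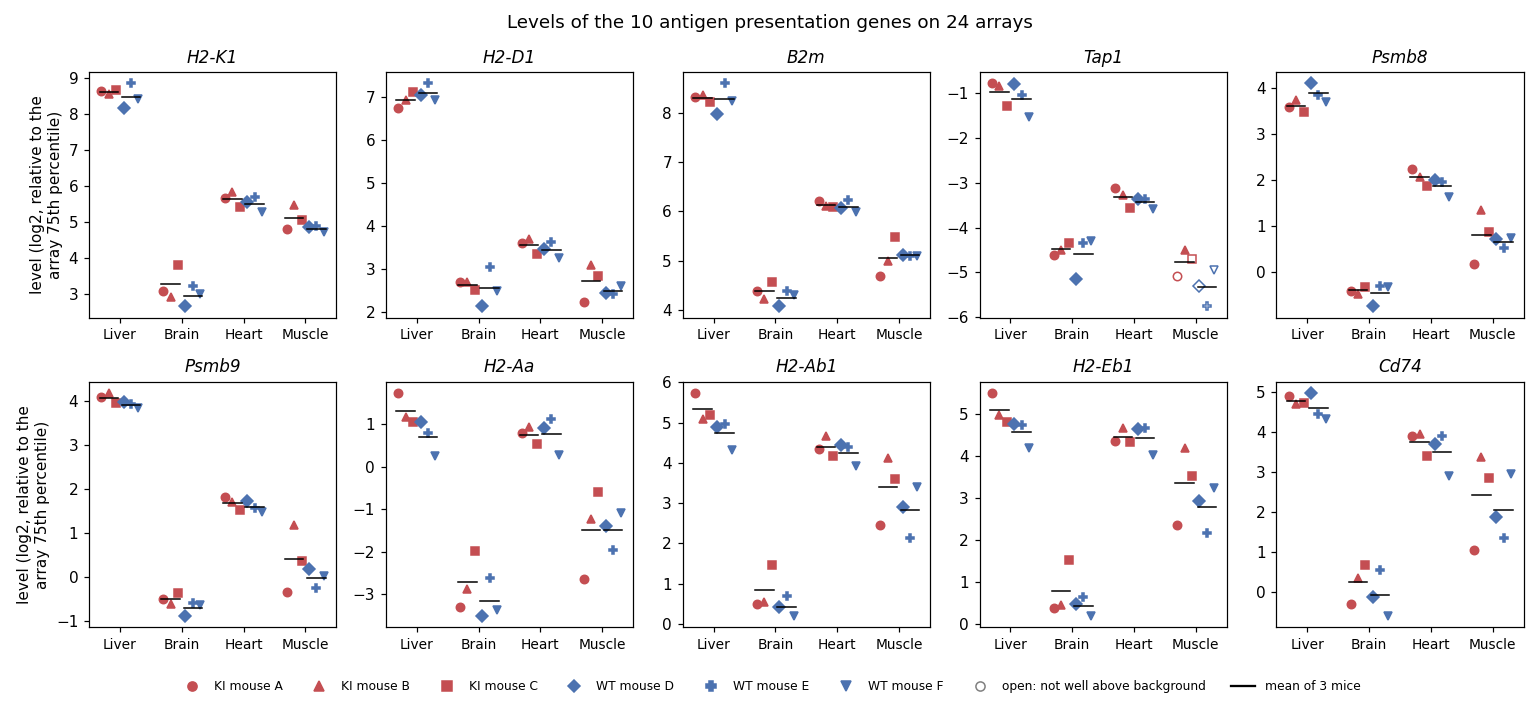
Level (log2, with the array's 75th percentile at 0) of each of the 10 genes in liver, brain, heart and muscle, 1 point per mouse, red for the 3 KI and blue for the 3 WT mice, with the mean of 3 mice as a line and open points where the probe was not well above background. The mean of 6 mice is highest in liver for all 10 genes, while in the 3 WT mice H2-Aa is slightly higher in heart (liver minus heart -0.0674). In class II genes the heart sits near the liver (H2-Aa 0.28 to 1.11 in heart, 0.26 to 1.74 in liver), and KI mouse C stands above the other brains (H2-Eb1 1.54 against at most 0.66).

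The classical heavy chain H2-K1 was at 8.62, 8.54 and 8.66 in KI liver (mice A, B, C in this order throughout) and at 8.15, 8.85 and 8.40 in WT liver (mice D, E, F). KI brains gave 3.1, 2.91 and 3.82, and WT brains 2.66, 3.22 and 2.99. In heart they lay between 5.28 and 5.82 and in muscle between 4.71 and 5.47. Liver stood apart from every other tissue, brain was lowest in all 6 mice, and heart and muscle overlapped by a small margin. The liver minus brain difference was 5.42 ± 0.16 (log2, SE, limma over 24 arrays, adjusted p = 3.05e-16) and the heart minus muscle difference 0.61 ± 0.16 (adjusted p = 0.00319). A second H2-K1 probe gave the same order with other sizes, 5.44 for liver minus brain but -0.90 in place of -1.85 for brain minus muscle. The related class I genes H2-K1, H2-D1 and H2-Q7 are similar in sequence, and cross-hybridisation of their probes was not tested.

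H2-D1, the other classical heavy chain, lay between 6.75 and 7.32 in liver, 3.25 and 3.69 in heart, 2.23 and 3.1 in muscle, and 2.13 and 3.04 in brain. Its heart and muscle values did not overlap (difference 0.89 ± 0.15, limma, adjusted p = 5.88e-05). Muscle and brain overlapped, and the brain minus muscle difference was -0.01 ± 0.15 (limma, adjusted p = 0.963), with brain higher in 2 of 6 mice. As measured, this was the only pair of neighbouring tissues among the class I and peptide supply genes that did not pass the threshold. Muscle and brain could not be ordered for Tap1 either, because of its dim muscle signal. Under quantile normalization the brain moved above muscle by 0.38 for H2-D1. With normexp background correction and quantile normalization, brain was higher by 0.36 and passed the threshold (limma, adjusted p = 0.0496).

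B2m, the light chain shared by all class I molecules, lay between 7.98 and 8.61 in liver, 5.99 and 6.23 in heart, 4.70 and 5.48 in muscle, and 4.07 and 4.55 in brain. The 4 tissues formed 4 separate ranges. Its smallest step, brain minus muscle, was -0.76 ± 0.12 (limma, adjusted p = 1.36e-05), but that step turned to 0.09 under quantile normalization, so the order of these 2 tissues depends on the scaling.

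The immunoproteasome subunits ran in the order liver, heart, muscle, brain, with each step past the threshold. Psmb8 lay between 3.47 and 4.10 in liver, 1.62 and 2.24 in heart, 0.18 and 1.34 in muscle, and -0.75 and -0.31 in brain. Psmb9 lay between 3.84 and 4.19 in liver, 1.47 and 1.82 in heart, -0.33 and 1.18 in muscle, and -0.88 and -0.36 in brain. No 2 tissues overlapped for either subunit. Liver exceeded brain by 17.9-fold for Psmb8 and 24.1-fold for Psmb9.

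Tap1, one chain of the peptide transporter, was dim everywhere, between -1.52 and -0.77 in liver, -3.59 and -3.12 in heart, and -5.14 and -4.30 in brain. Liver, heart and brain did not overlap, and liver exceeded brain by 3.5 ± 0.18 (log2, limma, adjusted p = 6.66e-13). Where each muscle array was set to the higher of its own value and the dimmest probe that counted as above background, the liver was at least 10.1-fold and the heart at least 2.0-fold above muscle. The measured brain minus muscle difference was 0.50 ± 0.18 (adjusted p = 0.0139), but on that floor brain did not exceed muscle, so no order of the 2 is given.

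The class II chain H2-Aa was at 1.74, 1.16 and 1.04 in KI livers and 1.06, 0.79 and 0.26 in WT livers, and at 0.78, 0.93 and 0.53 in KI hearts and 0.91, 1.11 and 0.28 in WT hearts. Brain lay between -3.52 and -1.98 and muscle between -2.65 and -0.61. Liver and heart overlapped widely, and brain and muscle overlapped too. Liver exceeded heart by 0.25 ± 0.31 (limma, adjusted p = 0.477), in 4 of 6 mice, whereas brain minus heart was -3.70 ± 0.31 (adjusted p = 1.81e-09).

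Its partner H2-Ab1 lay between 4.33 and 5.74 in liver, 3.93 and 4.67 in heart, 2.14 and 4.12 in muscle, and 0.19 and 1.47 in brain. H2-Eb1 lay between 4.21 and 5.52 in liver, 4.02 and 4.68 in heart, 2.19 and 4.19 in muscle, and 0.20 and 1.54 in brain. Both showed overlap of liver with heart and of heart with muscle, and in both the brain lay below all other tissues. Liver minus heart was 0.71 ± 0.27 for H2-Ab1 (limma, adjusted p = 0.0228) and 0.38 ± 0.28 for H2-Eb1 (adjusted p = 0.227). For H2-Ab1 that call was lost under quantile normalization (0.18, adjusted p = 0.577), under which H2-Eb1 turned to -0.14. The 2 H2-Ab1 probes differed by at most 0.06 in any tissue difference.

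Cd74, the invariant chain that travels with class II molecules, lay between 4.32 and 4.98 in liver, 2.90 and 3.95 in heart, 1.04 and 3.38 in muscle, and -0.61 and 0.68 in brain. Liver did not overlap with heart, but muscle reached into the heart range in KI mouse B and WT mouse F. The liver minus heart difference was 1.06 ± 0.35 (limma, adjusted p = 0.0105), which fell short under quantile normalization (0.57, adjusted p = 0.154).

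**Figure D2:**
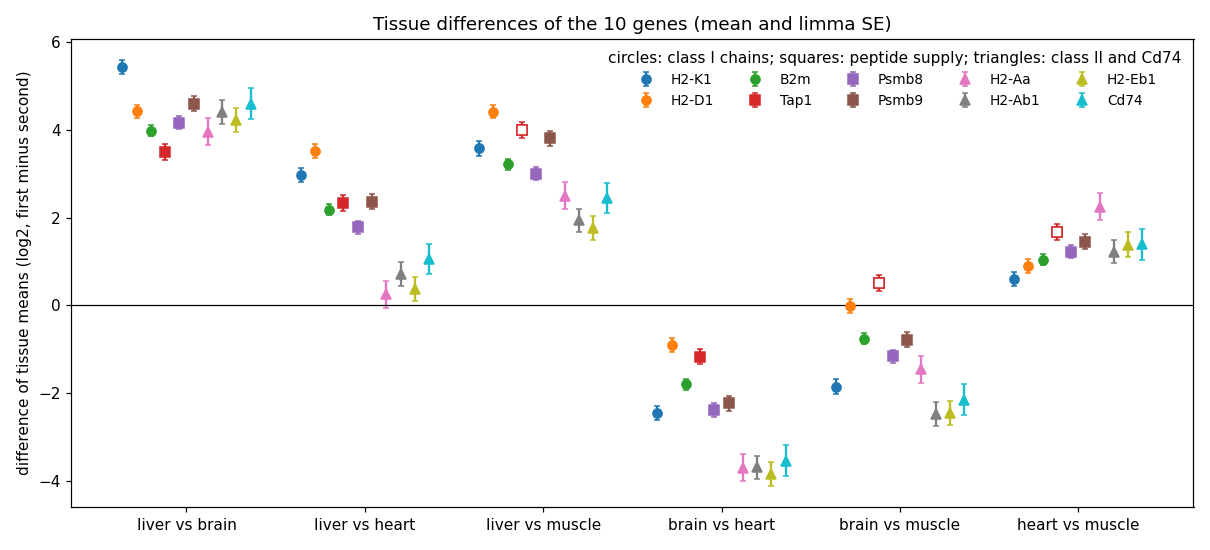
Difference of the tissue means (log2, first tissue minus second) of each gene for the 6 pairs of tissues, with the limma SE over 24 arrays; open squares mark Tap1 against muscle, where it was well above background on 1 of 6 arrays. Class II genes (triangles) lie near 0 for liver against heart, at 0.25 to 1.06, and farthest below 0 for brain against heart, at -3.84 to -3.54.

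Counted over pairs, liver exceeded brain for 10 of 10 members, where 45.9% of all genes tested did so, and by 11.3-fold to 42.9-fold. Liver exceeded heart for 8 of 10 (35.3% of all genes) and muscle for 10 of 10 (35.4%). Heart exceeded brain for 10 of 10 (44.1%) and muscle for 10 of 10 (29.3%), and muscle exceeded brain for 8 of 10 (46.7%), while 1 of 10, Tap1, was called higher in brain (35.5%). That Tap1 call gives no order, since its probe was well above background on 1 of 6 muscle arrays. The median difference of the members was 4.31 for liver minus brain, where that of all genes tested was 0.20, and it was 1.98 for liver minus heart (all genes -0.05) and -2.42 for brain minus heart (all genes -0.17). Split by role, liver minus heart ranged from 1.78 to 3.52 in the 6 class I and peptide supply genes and from 0.25 to 1.06 in the 4 class II genes, and brain minus heart from -2.45 to -0.90 and from -3.84 to -3.54. The 2 ranges do not meet in either pair.

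The arrays were printed on 3 slides. Liver and 2 brain arrays shared the first, the other 4 brain and 4 heart arrays the second, and the other 2 heart and all muscle arrays the third. RNA from liver and brain was extracted with a different kit than that from heart and muscle, and kit and tissue cannot be told apart in a comparison across these pairs. Within the first slide liver exceeded brain for 10 of 10 members (median 4.5), within the second heart exceeded brain for 10 of 10 (median brain minus heart -2.43), and within the third heart exceeded muscle for 10 of 10 (median 0.99). With the slide as a block, liver exceeded heart in 6 of 10 members, all of class I and peptide supply. Of all 17299 genes tested 4723 did so, against 6108 without the block. The class II differences were 0.52 to 1.27 (limma, adjusted p = 0.101 to 0.426). With the block, heart exceeded muscle in 7 of 10 members, the calls of H2-K1 (0.39), H2-Ab1 (0.95) and Cd74 (0.92) being lost. Of all 17299 genes 4034 did so, against 5074 without the block.

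The other genes of the pathway followed in part. Of 24 other class I genes and regulators listed, 21 were on the array. In liver against brain, 20 of these 21 were higher in liver, among them the class I activator Nlrc5 (5.21), the peptide trimmer Erap1 (3.96) and the tapasin gene Tapbp (3.28, log2). In liver against heart, 16 of 21 were higher and 3 lower in liver. Of 17 other class II genes, 16 were on the array and 15 tested. In liver against brain, 9 were higher in liver and 1 lower, with H2-DMb1, a chaperone chain for class II loading, at 2.35. Ctss, the protease that trims the invariant chain, did not follow (-0.46, limma, adjusted p = 0.0993).

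The genotype comparison asked whether KI tissues differed from WT tissues of the same kind. No member passed the threshold in any tissue, and neither did any gene (0% of 13517 to 16073 genes tested), by limma with an adjusted p under 0.05. The KI means were nonetheless mostly the higher ones: in liver for 8 of 10 members, in brain for 10 of 10, in heart for 9 of 10 and in muscle for 7 of 9. The median KI minus WT difference of the members was 0.16 (liver), 0.26 (brain), 0.11 (heart) and 0.29 (muscle), beside 0.05, -0.03, -0.05 and 0.02 for all genes tested. These medians moved with single mice: the median was 0.08 in liver without WT mouse F, 0.07 in brain without KI mouse C, 0.14 in brain without WT mouse D, 0.00 in heart without WT mouse F, and in muscle 0.03 without KI mouse B and 0.57 without KI mouse A. The members rise and fall together from mouse to mouse, so their signs are not separate observations, and the tissues come from the same 6 mice. At an unadjusted p under 0.05 there was 1 member in liver, where 11.8% of all genes were under it, and 0 in brain, heart and muscle (0.79%, 1.64% and 0.866% of all genes). KI lay above WT without overlap for 0 members in brain (1.22% of all genes), heart (1.79%) and muscle (2.22%).

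**Figure D3:**
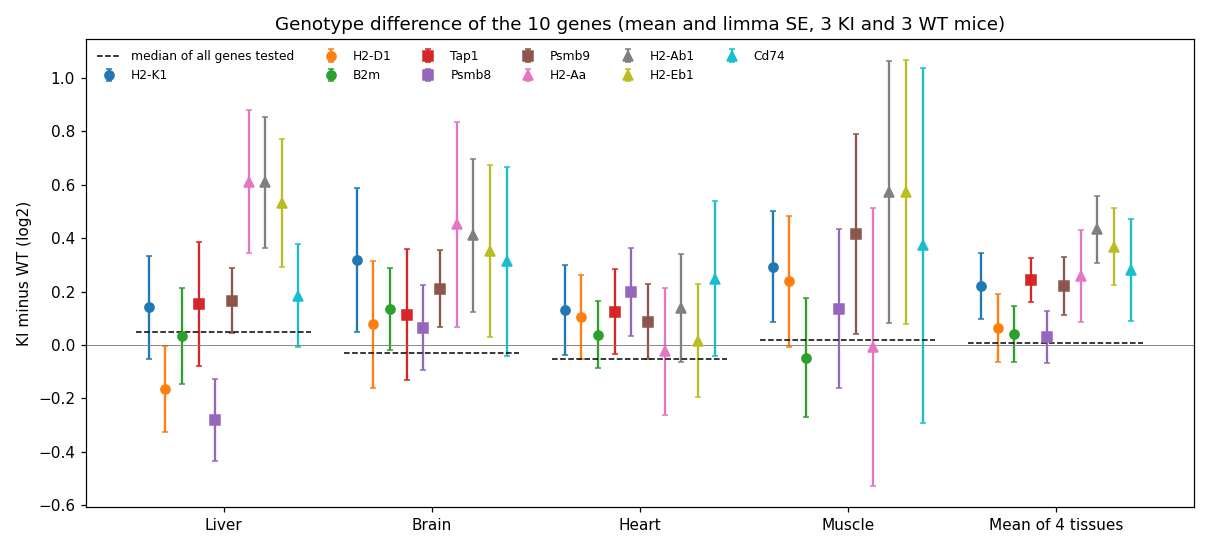
KI minus WT difference (log2) of each gene in each tissue and in the mean of the 4 tissues per mouse, with the limma SE (3 KI and 3 WT mice) and the median of all genes tested as a dashed line. No difference passed the threshold. In liver H2-Aa and H2-Ab1 (both 0.61) and H2-Eb1 (0.53) have the highest differences, and errors are wide in muscle.

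In liver 3 of the 4 class II genes had the largest differences of the members. H2-Ab1 was at 5.74, 5.09 and 5.18 in KI and 4.90, 4.97 and 4.33 in WT, so that the 3 KI livers lay above the 3 WT livers. H2-Eb1 was at 5.52, 4.98 and 4.81 in KI and 4.76, 4.75 and 4.21 in WT, again without overlap. These 2 of 10 members stood beside 12.9% of all genes with KI above WT and no overlap in liver. The differences were 0.61 ± 0.25 for H2-Ab1 (limma, adjusted p = 0.421) and 0.53 ± 0.24 for H2-Eb1 (adjusted p = 0.441). H2-Aa differed by 0.61 ± 0.27 (adjusted p = 0.434) with 1 WT liver inside the KI range, and Cd74 by 0.18 ± 0.19 (adjusted p = 0.68). Without KI mouse A the class II median fell from 0.57 to 0.36, and without WT mouse F to 0.37. Without KI mouse C, whose liver held muscle transcripts, it was 0.68.

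Class I and peptide supply genes in liver lay on both sides of 0. Psmb8 was at 3.58, 3.73 and 3.47 in KI and 4.10, 3.84 and 3.68 in WT, a difference of -0.28 ± 0.15 (limma, adjusted p = 0.482), and H2-D1 at -0.16 ± 0.16. The other 4 lay between 0.03 and 0.17, and H2-K1 and B2m turned below 0 under quantile normalization (-0.09 and -0.16). The second H2-K1 probe differed by -0.17, where the first differed by 0.14.

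In liver, where 12.9% of all single genes had KI above WT without overlap, the summed level of 10 macrophage markers was higher in KI. It lay at 6.16 to 6.37 against 5.59 to 5.84 in WT, without overlap. Of these markers 9 were well above background on all 6 liver arrays and Cd163 on none. Dendritic cell markers ranged from 0.78 to 1.49 in KI and 0.51 to 0.97 in WT (7 of 8 detected on all liver arrays, Xcr1 on none) and B cell markers from 1.66 to 2.85 and 0.99 to 2.63 (5 of 8). Adipocyte markers ranged from 2.07 to 2.67 in KI and 1.48 to 2.11 in WT (3 of 6, Plin1 and Lep on none). T and NK cell markers ranged from 5.61 to 6.39 and 5.83 to 5.94 (6 of 8, Ncr1 on none). The part of these cells in the class II differences was not tested. Among the other class II genes in liver, Ctss, which macrophages also express highly, differed by 0.85 ± 0.17 (limma, adjusted p = 0.339). All KI livers lay above all WT livers for Ctss, as for 12.9% of all genes. H2-DMa, a class II loading chaperone, differed by 0.56 ± 0.27 and the costimulatory receptor Cd40 by 0.80 ± 0.39. Of the 15 other class II genes tested 0 passed. Of the 21 other class I genes 0 passed. The smallest p-values there were those of H2-T10 (-0.43 ± 0.17), Mr1, which presents vitamin metabolites (0.75 ± 0.30), and Erap1 (-0.40 ± 0.17), with adjusted p = 0.418 to 0.422 by limma. Without KI mouse C, Ctss differed by 0.89, Cd40 by 1.00, H2-T10 by -0.36, Mr1 by 0.94 and Erap1 by -0.45, and none passed.

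In brain the KI differences rested largely on KI mouse C and WT mouse D. H2-Eb1 was at 0.39, 0.46 and 1.54 in KI mice A, B and C and at 0.48, 0.66 and 0.20 in WT. H2-Ab1 was at 0.50, 0.55 and 1.47 in KI and 0.41, 0.69 and 0.19 in WT, and H2-K1, given above, was likewise highest in mouse C. KI mouse C was the highest of 6 brains for 7 members, and WT mouse D the lowest for 7. KI mice A and B lay among the WT values except for Psmb9, where mouse A (-0.49) lay above all 3 WT brains (-0.88, -0.58 and -0.63). The class II median was 0.38 with mouse C and 0.09 without it, and the median of all 10 went from 0.26 to 0.07. Without mouse D the median of all 10 was 0.14, with 7 of 10 higher in KI, and that of the class I and peptide supply genes went from 0.12 to -0.02. H2-Eb1 went from 0.35 ± 0.32 to -0.02 ± 0.18.

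That brain array also held liver transcripts. The 100 genes that mark liver most clearly were all highest there, at a median of 1.47% of the level in the liver of the same mouse. On a linear scale the H2-K1 signal on that array was 14.1 times the array percentile, against 6.30 to 9.31 in the other brains, and 1.47% of that mouse's liver signal would be 5.95. For H2-Eb1 the signal was 2.91 against 1.15 to 1.58, and the same share of liver would be 0.413. The summed macrophage markers of that array, at 5.35, lay within the range of the other brains (5.25 to 5.44), with 9 of 10 detected on all brain arrays and Cd163 on none. Dendritic cell markers were lowest there, at 0.29 against 0.83 to 1.42 in the other brains (6 of 8 detected on all, Xcr1 and Clec9a on none), and B cell markers, at -1.28, lay within the range of the others (-1.78 to -0.87), with 4 of 8 not above background on any brain array. The summed mammary epithelium markers were highest there too, at 3.40 against at most 1.48, with Csn2 and Csn3 not above background on any brain array. That list also summed to 6.57 to 7.26 in the livers, so it does not mark mammary tissue alone. The part of these transcripts in the result was not tested.

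In heart no member separated the genotypes, and WT mouse F was the lowest of the 6 hearts for all 10 members. Cd74 was at 3.89, 3.95 and 3.40 in KI and 3.70, 3.89 and 2.90 in WT, a difference of 0.25 ± 0.29 (limma, adjusted p = 0.97). Psmb8 differed by 0.20 ± 0.16, and H2-Eb1 by 0.02 ± 0.21. Without mouse F the median over the members went from 0.11 to 0.00, with 5 of 10 above 0, and the class II median from 0.08 to -0.12. Mouse F and KI mouse C, both 14 months old, were the 2 hearts on the third slide. Within that slide KI was higher for 10 of 10 members (median 0.19, 1 mouse against 1), and within the second slide for 8 of 10 (median 0.11, 2 against 2). Among the other pathway genes Ctss (0.39 ± 0.26), H2-DMb1 (0.24 ± 0.21) and Psmb10, a further immunoproteasome subunit (-0.21 ± 0.16), had small p-values for their lists, and 0 of 21 other class I and 0 of 14 other class II genes passed.

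Muscle had the widest spread. H2-Ab1 was at 2.45, 4.12 and 3.59 in KI mice A, B and C and at 2.91, 2.14 and 3.40 in WT mice D, E and F, and Cd74 at 1.04, 3.38 and 2.84 and at 1.86, 1.34 and 2.93. KI mice thus held both extremes: mouse A was lowest for 6 members and mouse B highest for 8. The SD within genotype was 0.75 to 1.04 for the class II genes, beside a median of 0.28 and a 95th percentile of 0.83 over all genes tested in muscle, and in liver it was 0.26 to 0.39. The H2-Ab1 difference was 0.57 ± 0.49 (limma, adjusted p = 1.00), which became 1.04 ± 0.40 without mouse A and 0.21 ± 0.48 without mouse B. The class II median ran from 0.02 without mouse B to 1.05 without mouse A. Without mouse A, 4 of 9 members had an unadjusted p under 0.05, beside 372 of 13517 genes tested, and 0 members passed. Tap1 was not tested in muscle, where the WT arrays were all not well above background.

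The macrophage markers of muscle spanned 2.65 to 4.09 in KI and 2.15 to 3.65 in WT, with mouse A low and mouse B high as for class II, and WT mouse E lowest (8 of 10 markers detected on all 6 arrays, Cd163 on none). Mouse B also gave the highest summed mammary epithelium markers of the muscles, 4.04 against at most 0.72, with 3 of 6 markers detected on all 6 arrays and Csn3 on none. Cardiomyocyte markers ran from 2.09 in mouse A and 2.69 in mouse E to 7.54 in mouse F and 8.85 in mouse B (4 of 6 detected on all 6 arrays, Myl7 on none). Dendritic cell markers ran from -0.42 in mouse E and 0.17 in mouse A to 1.57 in mouse B (2 of 8, Xcr1 on none), and B cell markers reached 1.93 in mouse B against at most -0.17 elsewhere (3 of 8, Cd79a and Blk on none). The part of any of these cells in the spread was not tested. Without mouse B, 5 of 9 members were higher in KI. Nlrc5 was higher in all 3 KI muscles, by 0.73 ± 0.29 (limma, adjusted p = 1.00), where 2.22% of all genes had KI above WT without overlap. Cd86, a costimulatory ligand of antigen presenting cells, differed by 1.11 ± 0.50. Without mouse B these were 0.59 ± 0.32 and 0.76 ± 0.51. In muscle 0 of 21 other class I and 0 of 11 other class II genes passed.

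**Figure D4:**
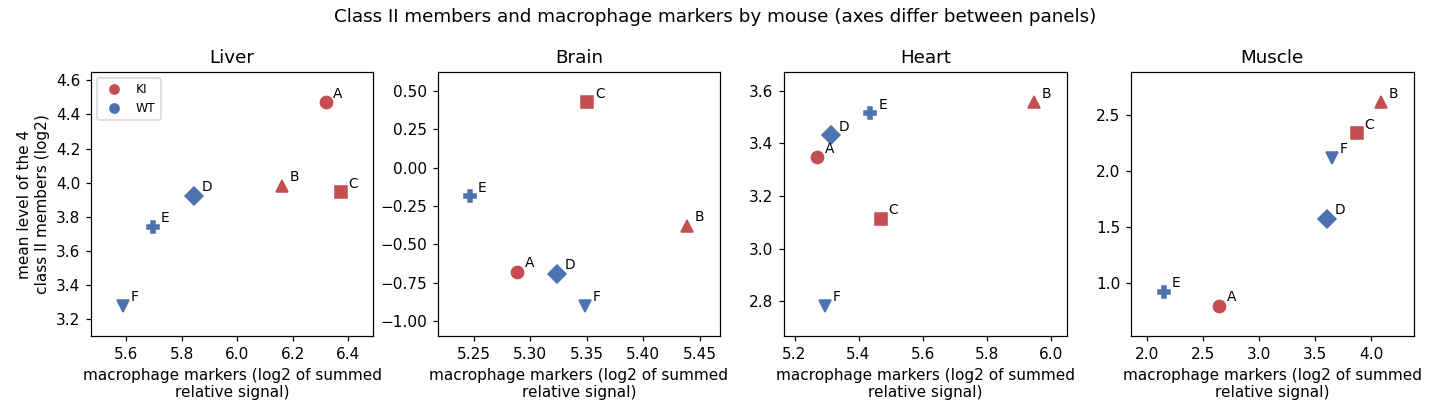
Mean level of the 4 class II genes (log2) against the summed level of 10 macrophage markers (log2 of summed relative signal) in each tissue, 1 point per mouse, red for KI and blue for WT; axes differ between panels. In muscle both are low in mice A and E and high in B and C, and in liver the 3 KI mice (6.16 to 6.37) lie to the right of the 3 WT mice (5.59 to 5.84).

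Averaged over the 4 tissues of each mouse, all 10 members were higher in KI, by 0.03 (Psmb8) to 0.43 (H2-Ab1), and 0 of 10 passed the threshold by limma (adjusted p = 0.983 to 0.99). At an unadjusted p under 0.05 there were 3 members, H2-Ab1 (0.43 ± 0.13), Tap1 (0.24 ± 0.08) and H2-Eb1 (0.37 ± 0.14), where 3.47% of all genes tested were under it. All KI means lay above all WT means for H2-Ab1, Tap1 and Psmb9, where 4.54% of all genes did so. The Tap1 mean includes muscle values that were mostly not well above background. Without the 3 arrays that held transcripts of another tissue, the member median fell from 0.23 to 0.12. This fit used group means with the remaining arrays taken as separate, not the means of each mouse. Its p-values and SEs thus differ from those above by the model as well as by the arrays. In it 0 members were under an unadjusted p of 0.05, beside 468 of 17299 genes tested. Of the other pathway genes, Ctss (0.49 ± 0.19), H2-DMb1 (0.36 ± 0.17), Cd86 (0.47 ± 0.22, without WT mouse F, whose liver array gave no value for it) and Nlrc5 (0.23 ± 0.10) had small p-values for their lists, and 0 of 21 and 0 of 15 passed. Without the 3 arrays these were 0.41 ± 0.19, 0.23 ± 0.17, 0.32 ± 0.18 and 0.19 ± 0.14.

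Whether the genotype difference itself differed between tissues was asked with a moderated F-test over the 24 arrays. No member passed, with unadjusted p from 0.425 (Psmb8) to 0.994 (Cd74), and 0% of 17299 genes did (limma, adjusted p = 1.00 for every member). At an unadjusted p under 0.05 there were 0 members and 1.91% of all genes. The larger class II difference in liver than in heart is thus not shown to be a difference between these tissues.

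How the members varied with each other was described over the 24 arrays after each tissue's mean was subtracted. The points share mice, arrays and the array normalization, so the correlations are a description. Pairs of class II genes correlated at r = 0.82 to 0.98, with H2-Ab1 and H2-Eb1 the closest. Pairs of class I and peptide supply genes correlated at 0.27 to 0.80 (median 0.56), the lowest being B2m with Tap1. Psmb9 and Tap1, which share the stretch between their starts, correlated at 0.71. Psmb9 correlated at 0.80 both with Psmb8 and with H2-Eb1, with which it shares no such stretch. H2-K1 and H2-D1, whose promoter windows were alike in most aligned bases, correlated at 0.56. Whether shared promoter sequence has a part in any of these correlations was not tested. Pairs across the 2 arms lay at 0.35 to 0.80. Without the 3 arrays that held transcripts of another tissue (21 arrays), the 3 ranges were 0.81 to 0.98, 0.30 to 0.76 and 0.23 to 0.78.

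The genes most like H2-K1 by this measure, among 11611 genes well above background on all arrays, were its near relatives H2-K2 (r = 0.91), H2-Q7 (0.84) and H2-T23 (0.84), the acute phase gene Hp (0.84) and Phldb3 (0.82). The median r of all genes with H2-K1 was -0.08. Over the 21 arrays, Hp was at 0.68 and Phldb3 at 0.54, and the 3 relatives lay at 0.77 to 0.84. Those most like H2-Aa outside the members were Lama4 (0.80), Tspo (0.77), Pqlc3 (0.77), Tnfsfm13 (0.77) and the interferon inducible Ifi204 (0.76), where H2-Ab1 reached 0.84. These 5 lay between 0.71 and 0.80 over the 21 arrays. Among the cell type lists, the mean class II level correlated most with macrophage markers (r = 0.76), then with mammary epithelium (0.70) and dendritic cells (0.59), and it was lowest with neurons (-0.32). The mammary list does not mark mammary tissue alone. In the livers it summed to 6.57 to 7.26, with Csn2 and Csn3 not above background on any liver array. The mean of the 3 class I chains correlated most with mammary epithelium (0.58), then with T and NK cells (0.44), and at 0.38 with macrophages. Over the 21 arrays, the class II mean correlated at 0.81 with dendritic cells, 0.80 with macrophages and 0.54 with mammary epithelium. Skeletal muscle was then the lowest with class II (-0.57). The class I mean then correlated most with T and NK cells (0.54), and at 0.36 with mammary epithelium and 0.27 with macrophages.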

How the data were processed

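Total RNA of 24 samples was labelled with Cy3 and hybridised to 1-colour Agilent arrays, 1 per sample. The authors deposited scanner intensities made with Feature Extraction 12.0.3.1 according to the headers. The deposited processed signal intensity was already corrected for background and spatial trend, but not normalized between arrays. Median spot and background intensities were used for an alternative correction. A second table from the authors, of 33912 score values per array, held z-scores within each array (largest difference from the scanner values 0.005) and served as an alternative. The score has no centring or scale of its own beyond each array.

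Control spots and outlier spots (121 to 347 per array) were left out, spots of a probe averaged, and log2 values taken minus the 75th percentile of the array. The number of arrays, 3 per group, limits the precision. Probes were named through RefSeq accessions (assembly GRCm38.p6, names, gene order and promoter sequences only, 99.0% of 26732 curated mRNA probes matched). The probe with the highest mean stood for a gene, which could hide a difference between probes.

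A gene was tested in a tissue if every array of either genotype (3 arrays) had it well above background, using limma 3.58.1 in R 4.3.3 (two-sided, Benjamini-Hochberg over all genes, threshold 0.05). Tissue differences and the interaction were fitted over 24 arrays and 8 group means. With 3 mice against 3, an exact permutation test cannot go below p = 0.10, so none was run. The mouse number marks the same animal in 4 tissues, and the replicate block (duplicateCorrelation) was an alternative, as were other normalizations, all probes, no filter, array weights, slide, age and each mouse left out. Scripts were tested on simulated data.

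The 10 members and all gene and marker lists were chosen with earlier results of these data known. Named beyond the members are the pathway genes of smallest p in a comparison and the 5 genes most like H2-K1 and H2-Aa. Pathway genes named for tissue differences were chosen after their values were seen.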

Additional observations from a re-analysis of the deposited data

How the results depend on the processing

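The 0 members past the threshold between genotypes, and in the difference between tissues, stayed at 0 under all 92 alternative fits, and the counts for tissue pairs stayed within 1.5 times of those reported in 95 of 96. The exception was heart against muscle in the 3 KI mice, with 6 members in place of 10. Of all 17299 genes 3395 were higher in heart there, in place of 5074. With the mouse as replicate block (consensus correlation -0.00069 over the 24 arrays) no call of a member changed, liver against brain keeping 10 members. In liver 2 genes, neither a member, passed in the fit of all 24 arrays both with and without that block, where the fit of the 6 livers gave 0. In the mean of the tissues 1 gene, not a member, passed in the 24-array fit with the block, which was not run there without it. The 3 members under an unadjusted p of 0.05 in the mean of the tissues ran from 1 to 5 with a mouse left out.

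Genotype differences of single members changed sign in 40 of 755 alternative values, none of which passed the threshold. Some of these fits, such as those without the filter or with the replicate block, keep the same levels and group means. Their differences cannot change sign, so the share is no measure of stability. In liver, quantile normalization gave -0.0943 for H2-K1 and -0.16 for B2m, normexp with quantile normalization -0.0552 and -0.20, and the mean of all probes -0.0147 for H2-K1. In brain, the deposited scores gave -0.00033 for Tap1. In heart, quantile normalization gave 0.0218 for H2-Aa, normexp 0.0329, and array weights -0.0380 for H2-Ab1 and -0.16 for H2-Eb1. In muscle, array weights gave 0.24 for B2m and 0.52 for H2-Aa. Without the 3 arrays holding transcripts of another tissue, an alternative chosen after seeing the data, as were the correlations over 21 arrays and the slide block of the tissue pairs, the mean of the tissues gave -0.0312 for Psmb8. The cause was not tested.

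With each mouse left out, liver differences ranged from -0.0179 to 0.33 for H2-K1, from -0.11 to 0.20 for B2m and from -0.0444 to 0.32 for Tap1. In brain they ranged from -0.14 to 0.32 for H2-D1, from -0.16 to 0.26 for Tap1, from -0.0767 to 0.14 for Psmb8 and from -0.0194 to 0.55 for H2-Eb1. In heart they ranged from -0.0137 to 0.10 for B2m, from -0.27 to 0.15 for H2-Aa, from -0.0246 to 0.25 for H2-Ab1, from -0.20 to 0.13 for H2-Eb1 and from -0.0481 to 0.45 for Cd74. In muscle they ranged from -0.26 to 0.13 for B2m, from -0.13 to 0.45 for Psmb8, from -0.45 to 0.57 for H2-Aa and from -0.11 to 1.06 for Cd74. In the mean of the tissues they ranged from -0.0107 to 0.17 for H2-D1, from -0.0208 to 0.12 for B2m and from -0.0455 to 0.0862 for Psmb8.

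Tissue differences changed sign in 14 of 960 alternative values, which again include fits that keep the same levels and group means. For liver minus heart, H2-Aa was -0.0674 in the 3 WT mice, and H2-Eb1 -0.14 under quantile normalization and -0.0628 under normexp. For brain minus muscle, H2-D1 was 0.38 and 0.36 under these 2 (the latter past the threshold, limma, adjusted p = 0.0496), 0.0317 in the scores, 0.0727 in the WT mice, 0.12 without the 3 arrays and from -0.15 to 0.0859 with a mouse left out, and B2m was 0.0928 and 0.13. Quantile normalization moved the median of all genes from -0.27 to 0.05 for brain minus muscle and from 0.20 to -0.06 for liver minus brain. A further 25 values fell short of the threshold, among them liver against heart of H2-Ab1 and Cd74.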
